A study of Homo sapiens with 16 samples.

Results

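The 9 genes described here code for parts of the gamma-secretase protease, for Notch receptors and for one Notch target. They are NCSTN, PSEN2, APH1A, APH1B, PSENEN, NOTCH1, NOTCH2, NOTCH3 and HES1. Their rows were found by gene symbol, and they are 9 of the 20271 genes in the deposited table. NCSTN was selected on its own measured values in the groups without nutlin: its level was low with p53 siRNA and not with p53 and iASPP siRNA together. Its values in any comparison that uses a group without nutlin are therefore given as a description, with no test, and it is left out of the counts there.

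Gamma-secretase is a membrane protease of 4 kinds of subunit, namely a presenilin that holds the catalytic site, nicastrin that admits the substrate, APH1 that scaffolds the complex and PEN-2 that activates it. It cuts the Notch receptor within the membrane once a ligand and a metalloprotease have acted on it, and the freed intracellular domain joins the DNA-binding protein RBPJ in the nucleus and switches on genes such as HES1. In intestinal epithelium this pathway is known for keeping progenitor cells from secretory differentiation.

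The cells were HCT116, an established human line from a colon cancer, whose p53 is wild type per the labels. They received RNA interference for 3 days, and the nutlin groups then had a further 0.5 days of Nutlin-3, which keeps MDM2 from binding p53. The groups were p53+iASPP siRNA with nutlin, p53+iASPP siRNA, iASPP siRNA with nutlin, iASPP siRNA, p53 siRNA with nutlin, p53 siRNA, CTR siRNA with nutlin and CTR siRNA. There were 2 libraries in each of the 8 groups and 16 in all, all from the one line. Nothing in the labels says that the 2 libraries of a group are separate cultures. The p-values thus rest on the spread between libraries alone, and that spread may be only technical. Levels are FPKM, that is fragments scaled to transcript length and to the library's total, so levels of different genes are compared per length.

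Replicate 2 was sequenced 4.23 to 6.50 times as deeply as replicate 1 of its group, as read from the step size of low values. PPP1R13L, the gene of iASPP, an inhibitor of p53, had 0.279 to 2.45 FPKM in the 8 libraries with iASPP siRNA, against 6.88 to 18.9 FPKM in the 8 without. CDKN1A, the p53 target p21, averaged 77.2 FPKM in p53 siRNA+nutlin libraries and 1543 FPKM in CTR siRNA+nutlin libraries. In 5 groups the replicates lay close together, with a median absolute log2 difference of 0.0507 to 0.0690 over genes of at least 100 FPKM. In the other 3 groups, all nutlin groups with a specific siRNA, it was 0.180 to 0.272, and CDKN1A in replicates 1 and 2 was 1656 and 776 FPKM in iASPP siRNA+nutlin, 47.4 and 107 FPKM in p53 siRNA+nutlin and 83.1 and 141 FPKM in p53+iASPP siRNA+nutlin. These 3 are called the diverging pairs. Nothing here shows which library of a pair departs from the rest, so the fits were repeated without the 3 replicate 2 libraries, called the second libraries here, and without the 3 replicate 1 libraries, called the first. Where a comparison uses these pairs, the values are given if either fit changes a call of the 9 genes or ends one of another gene. Of the epithelial markers EPCAM, KRT8, KRT18 and CDX2 were present at no less than 138, 849, 736 and 1.43 FPKM, while CDX1 was 0 in every library and VIL1, LGALS4 and KRT20 did not pass 2.27 FPKM. Of the 11 leukocyte, endothelial and fibroblast markers, CD68 reached 7.17, LYZ 3.70, DCN 1.51 and COL1A1 1.02 FPKM, and the other 7 stayed at or under 0.309 FPKM.

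The sequence before HES1 is shown because HES1 is the one Notch target among the 9 genes and carries the letters that RBPJ is known to bind. The core searched was TGGGAA, on both strands, in the 250 bases before the RefSeq start. HES1 held it at 84 and at 70 bases before that start, both on the plus strand, and the capitals below mark both matches in the stretch chr3:194135898-194136144 of GRCh38.p14, plus strand, 5′ to 3′, from RefSeq, which ends one base before the gene as annotated by GENCODE.
HES1: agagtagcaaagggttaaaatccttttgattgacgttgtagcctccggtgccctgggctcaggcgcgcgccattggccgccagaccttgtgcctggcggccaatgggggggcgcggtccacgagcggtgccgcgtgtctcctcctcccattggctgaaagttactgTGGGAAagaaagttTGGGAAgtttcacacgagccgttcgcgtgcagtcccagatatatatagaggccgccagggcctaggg
Of 35116 promoters of the same length, 20.8% held the core at least once and 2.90% at least 2 times. The table had promoters for 8 of the 9 genes, all except APH1B. PSENEN had 1 match, 200 bases before its start, and the other 6 had 0. The p53 half-site was found in 0 of these 8 windows and in 5.57% of all promoters. A match describes the letters only and shows no binding, and a window without a match says nothing about binding elsewhere.

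The subunit genes covered a wide range of levels. Averaged over the 16 libraries, PSENEN stood at 64.7, APH1A at 43.6, NCSTN at 13.2, PSEN2 at 5.83 and APH1B at 1.24 FPKM. Among the receptors NOTCH2 averaged 3.10, NOTCH3 2.45 and NOTCH1 0.893 FPKM, and HES1 averaged 7.50 FPKM. A mean of 1 FPKM or more was required for testing, which 10662 genes met, among them 8 of the 9. NOTCH1 did not meet it. By the GENCODE 29 annotation of GRCh38, 4 of the 9 lie on chromosome 1, namely NCSTN, PSEN2, APH1A and NOTCH2. There 5 of the 9 overlap another annotated gene, and without a stated use of strand in counting, reads from the overlaps cannot be assigned: COPA for NCSTN, C1orf54 for APH1A, U2AF1L4 and others for PSENEN, a miRNA and an antisense gene for NOTCH1 and a miRNA for NOTCH3. NOTCH2 has near-identical partial copies elsewhere on chromosome 1, so its values are uncertain too.

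**Figure D1:**
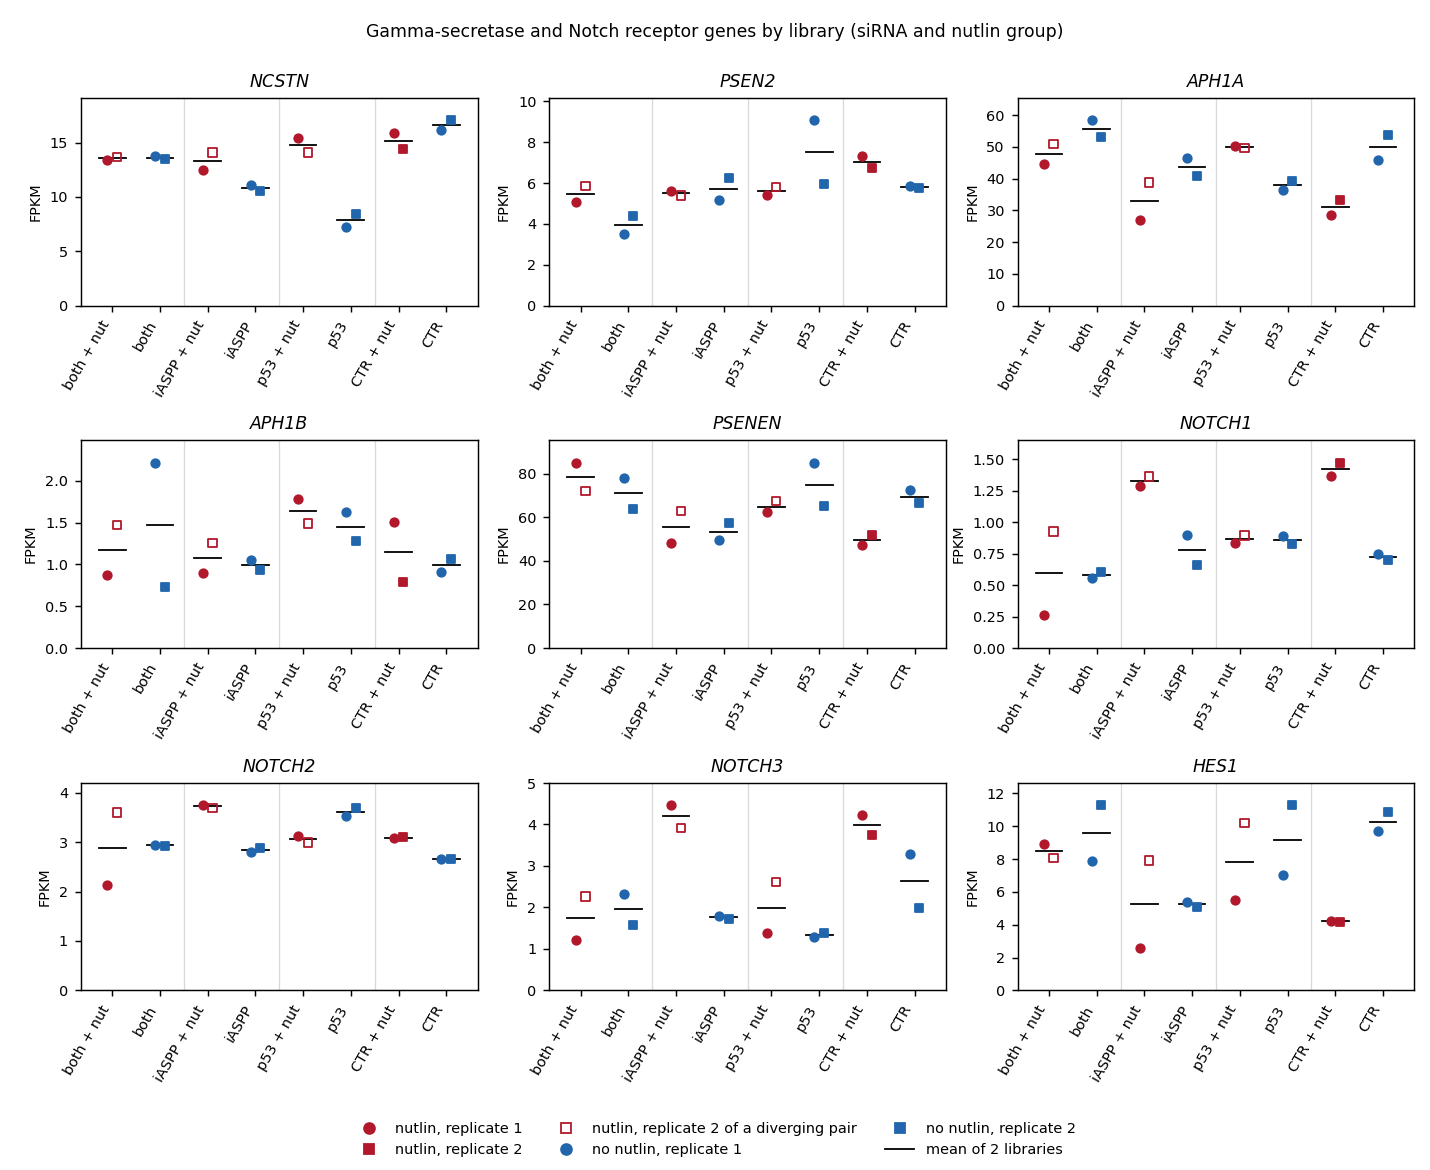
FPKM of each of the 9 genes in every library, by group (nut, nutlin; both, p53+iASPP siRNA), with a black line at the mean of the 2 libraries and open squares for replicate 2 of the 3 diverging pairs. NCSTN was lowest with p53 siRNA (7.84 FPKM on average), APH1A with nutlin in CTR siRNA cells (30.9 FPKM), and NOTCH3 was highest in iASPP siRNA+nutlin (4.19 FPKM) and CTR siRNA+nutlin (3.99 FPKM).

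NCSTN codes for nicastrin, the subunit that admits substrates. The gene lies at chr1:160343272-160358952 on the plus strand (ENSG00000162736). Without nutlin it had 13.8 and 13.5 FPKM in p53+iASPP siRNA libraries, 11.1 and 10.5 FPKM in iASPP siRNA libraries and 7.26 and 8.41 FPKM in p53 siRNA libraries, against 16.1 and 17.1 FPKM in CTR siRNA libraries. None of these 4 groups overlapped another. The mean with p53 siRNA was 47.2% of that with CTR siRNA, a log2(FPKM + 1) difference of -1.0, and the mean with iASPP siRNA was 65.1%, a difference of -0.58. Cells with both siRNAs had 174% of the level in p53 siRNA cells and 126% of that in iASPP siRNA cells. These values chose the gene and carry no test. In RNA from whole cultures, a lower level in each cell and a larger share of cells without the transcript cannot be told apart.

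The nutlin groups did not enter the choice of NCSTN, and there it was tested. It had 13.4 and 13.7 FPKM in p53+iASPP siRNA+nutlin, 12.5 and 14.1 FPKM in iASPP siRNA+nutlin and 15.4 and 14.1 FPKM in p53 siRNA+nutlin, against 15.9 and 14.5 FPKM in CTR siRNA+nutlin. The p53 siRNA and CTR siRNA libraries overlapped, and the p53 siRNA mean was 97.3% of the CTR siRNA mean. The difference was -0.04 ± 0.115 on the log2(FPKM + 1) scale (SE, limma adjusted p = 0.847), with a 95% interval of -0.29 to 0.22. After scaling it was -0.25 (adjusted p = 0.125), without the second libraries 0.02 (adjusted p = 0.893) and without the first -0.10 (adjusted p = 0.574), so its sign is not fixed. With nutlin, the difference was -0.18 ± 0.115 for iASPP siRNA against CTR siRNA (adjusted p = 0.478, limma), 0.03 ± 0.115 for p53+iASPP siRNA against iASPP siRNA (adjusted p = 0.893) and -0.11 ± 0.115 for p53+iASPP siRNA against p53 siRNA (adjusted p = 0.961). The p53 siRNA difference in iASPP siRNA cells minus that in CTR siRNA cells, both with nutlin, was 0.07 ± 0.163 (limma interaction, adjusted p = 0.949, 95% interval -0.29 to 0.42).

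Set side by side, nutlin went with 188% of the untreated level in p53 siRNA cells and 91.3% in CTR siRNA cells, again as a description. In order of the mean, NCSTN was highest in CTR siRNA (16.6 FPKM), then CTR siRNA+nutlin (15.2), p53 siRNA+nutlin (14.7), p53+iASPP siRNA (13.6), p53+iASPP siRNA+nutlin (13.5), iASPP siRNA+nutlin (13.3), iASPP siRNA (10.8) and p53 siRNA (7.84). CTR siRNA+nutlin overlapped p53 siRNA+nutlin, and p53+iASPP siRNA+nutlin overlapped both p53+iASPP siRNA and iASPP siRNA+nutlin. The other neighbours in this order did not overlap.

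COPA, a coatomer subunit gene, starts within the first bases of NCSTN and runs the other way. It averaged 19.8 FPKM in p53 siRNA libraries and 21.4 FPKM in CTR siRNA libraries, so it stood at 92.4% where NCSTN stood at 47.2%. NHLH1, the next protein-coding gene on the other side, did not pass 0.156 FPKM in any library. The 5 genes whose log2(FPKM + 1) followed NCSTN most closely over the 16 libraries, among the 6696 genes that averaged 5 FPKM or more, were SCAMP2 (Pearson r = 0.873), TMEM14C (0.862), PDIA5 (0.831), SRP19 (0.831) and MRPL45 (0.807). The 16 points come from 8 groups whose replicates differ in depth, and the r values are a description. With p53 siRNA these 5 stood at 62.8 to 72.9% of their CTR siRNA level, which the choice by correlation over these same libraries builds in. Of the other gamma-secretase genes in that list, APH1A had r = 0.231 (rank 1569), PSENEN -0.172 (rank 4389) and PSEN2 -0.365 (rank 5777). HES1 had r = 0.0159 (rank 2976). These r values cover all 16 libraries. Without nutlin APH1A, too, averaged less with p53 siRNA (37.9 FPKM) than with CTR siRNA (49.8 FPKM) or both siRNAs (55.7 FPKM).

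**Figure D2:**
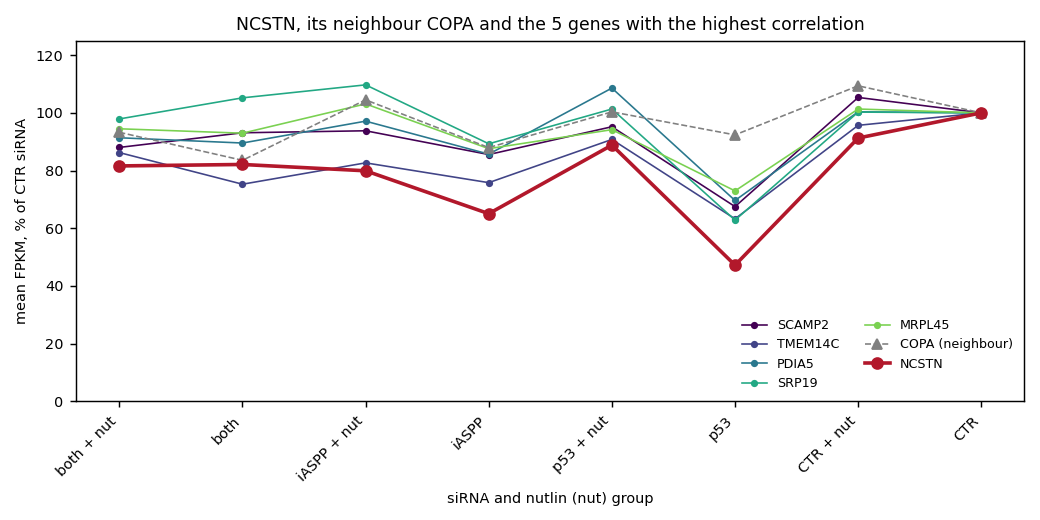
Mean FPKM of NCSTN, its neighbour COPA and the 5 genes with the highest correlation, as a percent of CTR siRNA, by group. With p53 siRNA, NCSTN was the lowest of the 7 lines at 47.2%, with COPA at 92.4% and the other 5, chosen for following it over these libraries, at 62.8 to 72.9%.

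PSEN2 codes for presenilin 2, a catalytic subunit (chr1:226870184-226896105, plus strand). It had 3.53 and 4.37 FPKM in p53+iASPP siRNA libraries, 5.15 and 6.25 FPKM in iASPP siRNA libraries and 9.08 and 5.94 FPKM in p53 siRNA libraries, against 5.86 and 5.78 FPKM in CTR siRNA libraries. Cells with both siRNAs were thus lowest and overlapped no other of these groups, while replicate 1 of p53 siRNA stood apart from its pair. Against p53 siRNA, the level with both siRNAs was 52.6%, a log2(FPKM + 1) difference of -0.76 ± 0.174 that did not pass (limma adjusted p = 0.0663). The nutlin groups lay between 5.10 and 7.34 FPKM, with the highest values in CTR siRNA+nutlin, and PSEN2 passed in 0 of the 16 comparisons.

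APH1A, the scaffold subunit gene (chr1:150265399-150269580, minus strand), was the one subunit gene past the threshold with nutlin in CTR siRNA cells among those tested there, which leave out NCSTN. It had 28.6 and 33.3 FPKM in CTR siRNA+nutlin libraries, against 46.0 and 53.7 FPKM in CTR siRNA libraries. The groups did not overlap, and the level with nutlin was 62.1% of that without. APH1A fell by 0.67 ± 0.165 on the log2(FPKM + 1) scale (SE, limma adjusted p = 0.0122). The median of all genes moved by -0.20 in the same comparison, and after median-of-ratios scaling the difference was -0.43 (adjusted p = 0.0389). Of 16 fits that each left out 1 library, the call was lost without replicate 2 of CTR siRNA and without replicate 1 of CTR siRNA+nutlin (highest adjusted p = 0.1). Of 7 genes tested here, 2 fell, APH1A and HES1, and 0 rose. Of all genes tested 26.8% passed, 21.0% lower and 5.87% higher.

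With nutlin, p53 siRNA cells had 50.4 and 49.7 FPKM of APH1A, against 28.6 and 33.3 FPKM in CTR siRNA cells. The groups stood well apart, and APH1A was higher with p53 siRNA by 0.68 ± 0.165 (limma adjusted p = 0.0135), at 162% of the CTR siRNA level. Scaled, the difference was 0.46 (adjusted p = 0.0354), where the median of all genes moved by 0.19 before scaling. The call was lost without replicate 1 of CTR siRNA+nutlin and without replicate 1 of p53 siRNA+nutlin (highest adjusted p = 0.111), and it held without the second libraries (adjusted p = 0.00911) and without the first (0.0126). In this comparison 1 of 8 genes tested rose and 1, NOTCH3, fell. Of all genes 22.5% passed, 17.2% higher and 5.29% lower. Without nutlin the order of p53 siRNA and CTR siRNA was the other way round, 36.5 and 39.4 FPKM against 46.0 and 53.7 FPKM. That difference of -0.38 ± 0.165 did not pass (adjusted p = 0.368). APH1A had 46.6 and 40.8 FPKM with iASPP siRNA and 58.4 and 53.1 FPKM with both siRNAs, its highest mean of the 8 groups. Both siRNAs against p53 siRNA gave 0.54 (limma adjusted p = 0.143). The p53 siRNA difference in iASPP siRNA cells minus that in CTR siRNA cells was 0.73 (limma interaction, adjusted p = 0.21). Neither passed.

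The next test uses the same CTR siRNA+nutlin libraries as the APH1A calls above, so these results are not independent. In that test the response of APH1A to nutlin differed between p53 siRNA and CTR siRNA cells. In p53 siRNA cells it averaged 50.04 FPKM with nutlin and 37.9 FPKM without, a difference of 0.39 ± 0.165 that did not pass by itself (adjusted p = 0.295). The test of the difference between both responses gave 1.06 ± 0.234 (limma interaction, adjusted p = 0.0179), and 1 of 7 genes passed, with a positive value. Of all genes 9.75% passed, 7.65% with a positive and 2.10% with a negative value. Scaled, the value was 0.84 (adjusted p = 0.022). It did not pass without replicate 2 of CTR siRNA, replicate 1 of p53 siRNA, replicate 1 of CTR siRNA+nutlin or replicate 1 of p53 siRNA+nutlin (highest adjusted p = 0.0767). It held without the second libraries (adjusted p = 0.00595) and without the first (0.00709).

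The other nutlin pair gave the same direction for APH1A. It had 44.5 and 51.0 FPKM in p53+iASPP siRNA+nutlin, against 27.0 and 38.8 FPKM in iASPP siRNA+nutlin. The groups did not overlap, although the libraries of iASPP siRNA+nutlin lay far apart. The difference was 0.54 ± 0.165 (limma adjusted p = 0.0478). Here 1 of 8 genes tested rose and 1, NOTCH3, fell. Of all genes 15.6% passed, 10.8% higher and 4.82% lower. The APH1A call held in 1 of the 16 fits that left out a single library and was lost with no filter (adjusted p = 0.0734), and its value was 0.70 without the second libraries (adjusted p = 0.0156) and 0.38 without the first (adjusted p = 0.261). Nutlin in iASPP siRNA cells went with -0.42 ± 0.165 (limma adjusted p = 0.172), which was -0.67 without the second libraries (adjusted p = 0.0125) and -0.16 without the first (adjusted p = 0.542).

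APH1B, the second scaffold gene (chr15:63276018-63309126, plus strand), was expressed near the filter, with 0.736 to 2.22 FPKM over the 16 libraries. Its replicates differed by up to 100% of their mean, with 2.22 and 0.736 FPKM in p53+iASPP siRNA, and it passed in 0 of the 16 comparisons. At this level a shift like that of APH1A was not detectable: its SE was 0.278 on the log2(FPKM + 1) scale in each pairwise comparison.

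PSENEN codes for PEN-2, the smallest subunit (chr19:35745114-35747519, plus strand). It had 47.1 and 51.8 FPKM in CTR siRNA+nutlin, against 72.4 and 66.7 FPKM in CTR siRNA. The groups did not overlap, but the difference of -0.48 ± 0.171 did not pass (limma adjusted p = 0.0575). With nutlin it had 85.2 and 72.1 FPKM in p53+iASPP siRNA, against 48.1 and 62.8 FPKM in iASPP siRNA, a difference of 0.50 ± 0.171 (adjusted p = 0.0712). Neither passed with all libraries. The first was -0.24 after scaling (adjusted p = 0.342) and, although it uses none of the diverging pairs, had an adjusted p of 0.0375 in both fits that leave out part of them. The second was 0.81 without the second libraries (adjusted p = 0.0239) and 0.20 without the first (adjusted p = 0.737).

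**Figure D3:**
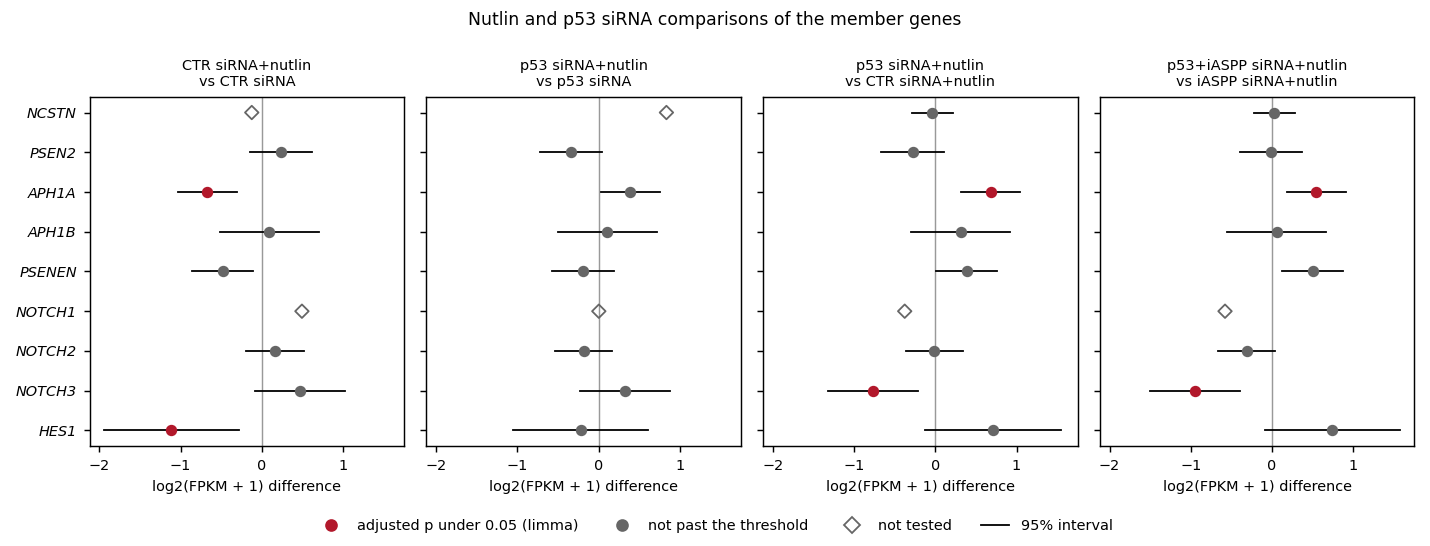
Differences in log2(FPKM + 1) of the 9 genes in 4 comparisons, with 95% intervals from limma, red where the adjusted p was under 0.05 and open diamonds where no test was made. APH1A lay at -0.67 with nutlin in CTR siRNA cells and at 0.68 and 0.54 in the comparisons that add p53 siRNA under nutlin, where NOTCH3 lay at -0.77 and -0.95.

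The receptor genes were all expressed at a low level. NOTCH3 (chr19:15159038-15200981, minus strand) was the one receptor gene past the threshold in any of the 16 comparisons, of the 2 tested. With nutlin it had 1.37 and 2.61 FPKM in p53 siRNA, against 4.22 and 3.75 FPKM in CTR siRNA. The groups did not overlap, and NOTCH3 fell to 49.9% of the CTR siRNA level, by 0.77 ± 0.253 on the log2(FPKM + 1) scale (limma adjusted p = 0.0498). That call was lost in 9 of 16 fits without a single library, with an adjusted p of up to 0.304, and the value ran from -1.07 to -0.47 over the 16. It passed after scaling (adjusted p = 0.0222) and without the second libraries (0.012), and not with the replicate block (0.0612), a pseudocount of 0.1 (0.0633), no filter (0.0881) or close pairs averaged (0.41). Without the first libraries it was -0.47 (adjusted p = 0.19).

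NOTCH3 was also lower where p53 siRNA was added to iASPP siRNA under nutlin. It had 1.21 and 2.26 FPKM in p53+iASPP siRNA+nutlin, against 4.47 and 3.91 FPKM in iASPP siRNA+nutlin. Both p53+iASPP siRNA+nutlin libraries were lower, although far apart, and the groups did not overlap. NOTCH3 fell to 41.4%, by 0.95 ± 0.253 (limma adjusted p = 0.0284), and the call was lost without replicate 1 of iASPP siRNA+nutlin and without replicate 1 of p53+iASPP siRNA+nutlin (highest adjusted p = 0.195). It was -1.31 without the second libraries (adjusted p = 0.00962) and -0.59 without the first (adjusted p = 0.3), and with no filter its adjusted p was 0.0563. Without nutlin the 4 groups lay between 1.29 and 3.29 FPKM, and the difference of p53 siRNA from CTR siRNA was -0.62 ± 0.253 (adjusted p = 0.334). Nutlin itself went with a difference of 0.91 ± 0.253 in iASPP siRNA cells, at 237% (adjusted p = 0.0642), and of 0.47 ± 0.253 in CTR siRNA cells (adjusted p = 0.19), neither of which passed. The difference in iASPP siRNA cells was 0.98 without the second libraries (adjusted p = 0.0198) and 0.83 without the first (adjusted p = 0.0703).

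NOTCH1 (chr9:136494433-136545786, minus strand) was under 1 FPKM in most libraries. It had 0.259 and 0.926 FPKM in p53+iASPP siRNA+nutlin, 1.29 and 1.36 FPKM in iASPP siRNA+nutlin and 0.836 and 0.894 FPKM in p53 siRNA+nutlin, against 1.37 and 1.47 FPKM in CTR siRNA+nutlin. The libraries of CTR siRNA+nutlin and iASPP siRNA+nutlin were its 4 highest of 16, since the groups without nutlin lay between 0.554 and 0.901 FPKM. It was left out of the test by its mean of 0.893 FPKM. With all 17696 genes above 0 in the fit, nutlin against none in CTR siRNA cells gave 0.49 ± 0.161 (limma adjusted p = 0.0717), and p53+iASPP siRNA+nutlin against iASPP siRNA+nutlin gave -0.58 ± 0.161 (adjusted p = 0.0606).

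NOTCH2 (chr1:119911553-120069626, minus strand) had replicates within 4.46% of their mean of each other in 7 groups, while in p53+iASPP siRNA+nutlin they were 2.14 and 3.60 FPKM, a difference of 50.8%. The means were highest in iASPP siRNA+nutlin (3.72 FPKM) and p53 siRNA (3.62 FPKM) and lowest in CTR siRNA (2.66 FPKM). NOTCH2 passed in 0 of the 16 comparisons. For p53+iASPP siRNA+nutlin against iASPP siRNA+nutlin it was -0.31, which was -0.60 without the second libraries (limma adjusted p = 0.00835) and -0.03 without the first (adjusted p = 0.953).

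HES1 codes for a transcriptional repressor that Notch signalling switches on, and its upstream stretch is printed above (chr3:194136145-194138732, plus strand). It had 4.25 and 4.17 FPKM in CTR siRNA+nutlin, against 9.73 and 10.8 FPKM in CTR siRNA. The groups did not overlap, and HES1 fell to 40.9% with nutlin, by 1.11 ± 0.379 on the log2(FPKM + 1) scale (limma adjusted p = 0.0498). The call was lost in 12 of 16 fits without a single library, with an adjusted p of up to 0.168, and scaled the value was -0.91 (adjusted p = 0.0923). With no filter the adjusted p was 0.0997.

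In the other nutlin groups HES1 had 8.90 and 8.05 FPKM in p53+iASPP siRNA+nutlin, 2.59 and 7.91 FPKM in iASPP siRNA+nutlin and 5.48 and 10.2 FPKM in p53 siRNA+nutlin. The libraries of iASPP siRNA+nutlin and of p53 siRNA+nutlin lay far apart. Their CDKN1A differed too, and the part of that difference in HES1 was not tested. Its differences here followed the library kept. For p53+iASPP siRNA+nutlin against iASPP siRNA+nutlin it was 0.74 with all libraries (limma adjusted p = 0.213), 1.47 without the second (adjusted p = 0.0102) and 0.02 without the first (adjusted p = 0.99). For p53 siRNA+nutlin against CTR siRNA+nutlin it was 0.71 with all libraries (adjusted p = 0.204), 0.31 without the second (adjusted p = 0.407) and 1.10 without the first (adjusted p = 0.0213). The nutlin response differed by 0.89 between p53 siRNA and CTR siRNA cells (adjusted p = 0.307) and by 0.97 between iASPP siRNA and CTR siRNA cells (adjusted p = 0.358). Without the first libraries these were 1.29 (adjusted p = 0.0349) and 1.63 (adjusted p = 0.0157). Without nutlin it had 7.86 and 11.3 FPKM in p53+iASPP siRNA, 5.38 and 5.09 FPKM in iASPP siRNA and 7.01 and 11.3 FPKM in p53 siRNA. The iASPP siRNA libraries were thus the lowest without nutlin, at -0.85 ± 0.379 against CTR siRNA (limma adjusted p = 0.178), which did not pass.

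In the other 12 comparisons 0 of the 7 or 8 genes tested passed with limma. For p53 siRNA against CTR siRNA the background was 0.0375% of all genes, and APH1A and NOTCH3 had an unadjusted p under 0.05. For iASPP siRNA against CTR siRNA the background was 7.86%, with PSENEN and HES1 under that unadjusted level. For p53+iASPP siRNA it was 0.975% against iASPP siRNA (PSEN2 and PSENEN) and 0.947% against p53 siRNA (PSEN2 and APH1A). With nutlin it was 0.769% for iASPP siRNA against CTR siRNA and 0.00938% for p53+iASPP siRNA against p53 siRNA, with 0 of the 8 genes under the unadjusted level in either. For nutlin against none it was 0.225% in p53 siRNA cells (APH1A), 5.21% in iASPP siRNA cells (APH1A and NOTCH3) and 0% in cells with both siRNAs (PSEN2). For the interactions it was 0.0281% for p53 by iASPP without nutlin (PSEN2 and APH1A), 0% for the same with nutlin (0 genes) and 1.02% for nutlin by iASPP (0 genes).

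Around these 9 genes, 56 further genes of gamma-secretase and Notch signalling were listed, and 40 passed the filter. With nutlin in CTR siRNA cells 5 of the 40 rose and 5 fell, against 5.87% and 21.0% of all genes, and their median difference was -0.04, against -0.20 for all genes. Those that rose were RFNG, HES2, EFNB1, MIB2 and NECTIN1, and those that fell were TMED2, POFUT1, NRARP, APLP2 and EFNB2. Fits without a single library kept RFNG, HES2, EFNB1 and EFNB2 in all 16, TMED2 and APLP2 in 15, MIB2 and NECTIN1 in 13 and POFUT1 and NRARP in 12. When the replicates of the close pairs were averaged into 1 sample, all 10 calls were lost, as were all 38 calls of these pathway genes given here over all comparisons and all 7 of the members.

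RFNG, a Fringe enzyme that adds sugars to Notch receptors, had 38.6 and 40.4 FPKM in CTR siRNA+nutlin, against 10.5 and 14.4 FPKM in CTR siRNA. The libraries stood far apart, with a log2(FPKM + 1) difference of 1.61 ± 0.173 (limma adjusted p = 7.88e-05). With iASPP siRNA alone 1 of the 40 passed as higher, RFNG, and 1 as lower, where 7.86% of all genes passed. HES2, EFNB1, MIB2 and NECTIN1, which also rose with nutlin, were higher there too in both libraries, without passing. Of those that fell with nutlin, TMED2, NRARP, APLP2 and EFNB2 were lower there in both libraries, while POFUT1 was higher (4.85 and 4.69 against 4.28 and 4.45 FPKM). Both comparisons use the CTR siRNA libraries, so like signs are not independent, and the share of all genes with like signs was not counted. MIB2 was also higher with p53 siRNA alone (12.6 and 10.4 against 8.87 and 8.68 FPKM). With iASPP siRNA, RFNG reached 32.0 and 26.2 FPKM (1.17 ± 0.173, limma adjusted p = 0.00597). With p53+iASPP siRNA it fell to 10.4 and 12.8 FPKM against iASPP siRNA (-1.26 ± 0.173, adjusted p = 0.0097). Each of these 2 calls held in 14 of 16 fits and was lost without replicate 1 of iASPP siRNA. Its nutlin response was smaller in iASPP siRNA cells than in CTR siRNA cells, by -1.29 ± 0.245 (limma interaction, adjusted p = 0.0379, held in 5 of 16 fits without a single library).

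HES2, a repressor of the same family as HES1, had 16.4 and 14.4 FPKM in CTR siRNA+nutlin, against 1.27 and 2.58 FPKM in CTR siRNA. It moved the opposite way to HES1, by 2.52 ± 0.298 (limma adjusted p = 0.00014). NRARP, a Notch target that damps the pathway, had 1.42 and 2.13 FPKM in CTR siRNA+nutlin, against 6.19 and 5.53 FPKM in CTR siRNA, and it fell by 1.31 ± 0.381 (adjusted p = 0.0258). The list of target genes, which leaves out HES1, thus held 1 gene that rose and 1 that fell among 4 tested. Whether Notch switches on HES2 in these cells was not tested, so its rise is no measure of Notch output.

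Among proteins that gamma-secretase cuts, both ephrins of the list changed, in opposite directions. EFNB1 had 15.4 and 16 FPKM in CTR siRNA+nutlin, against 2.48 and 3.13 FPKM in CTR siRNA (2.14 ± 0.273, limma adjusted p = 0.000219). EFNB2 had 2.54 and 2.17 FPKM in CTR siRNA+nutlin, against 5.55 and 6.0 FPKM in CTR siRNA (-1.02 ± 0.184, adjusted p = 0.00219). The libraries with and without nutlin did not overlap for either gene. NECTIN1, an adhesion molecule, rose by 1.04 ± 0.284 (adjusted p = 0.0192), and APLP2, a membrane glycoprotein, fell by 0.50 ± 0.106 (adjusted p = 0.00544, but 0.0919 after scaling). Of 9 genes tested on this list 2 rose and 2 fell.

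Of the remaining lists, MIB2, a ubiquitin ligase that acts on Notch ligands, rose by 0.56 ± 0.172 (limma adjusted p = 0.0322). POFUT1, which fucosylates Notch, fell by 0.54 ± 0.144 (adjusted p = 0.0181, but 0.0614 after scaling). TMED2, a carrier of the early secretory pathway, had 78.1 and 81.8 FPKM in CTR siRNA+nutlin, against 119 and 120 FPKM in CTR siRNA, and fell by 0.57 ± 0.125 (adjusted p = 0.00659). TMED2 was also lower with iASPP siRNA alone, at 71.5 and 73.5 FPKM (-0.71 ± 0.125 against CTR siRNA, adjusted p = 0.0118, kept in 12 of 16 fits). None of the 3 tested ligand genes and none of the 5 tested genes of the nuclear complex passed with nutlin in CTR siRNA cells.

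With nutlin, p53 siRNA against CTR siRNA gave 4 higher and 4 lower of the 40, against 17.2% and 5.29% of all genes, with a median of 0.09 against 0.19 for all genes. RFNG (12.6 and 16.3 FPKM with p53 siRNA), HES2 (3.75 and 5.07 FPKM), EFNB1 (3.75 and 3.92 FPKM) and MIB2 fell, and TMED2, NRARP, APLP2 (73.1 and 71.6 FPKM) and EFNB2 (6.46 and 4.29 FPKM) rose. The differences of the first 3 were -1.40 ± 0.173, -1.61 ± 0.298 and -1.79 ± 0.273. After scaling TMED2 and NRARP did not pass (adjusted p = 0.0634 and 0.0576), and MIB2 did not without the second libraries (0.132) or with the replicate block (0.053). Fits without a single library kept TMED2 in 13, MIB2 in 7 and NRARP in 4 of 16, and the other 5 in at least 15. This comparison shares the CTR siRNA+nutlin libraries with that of nutlin against none, so opposite signs in both are not independent.

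**Figure D4:**
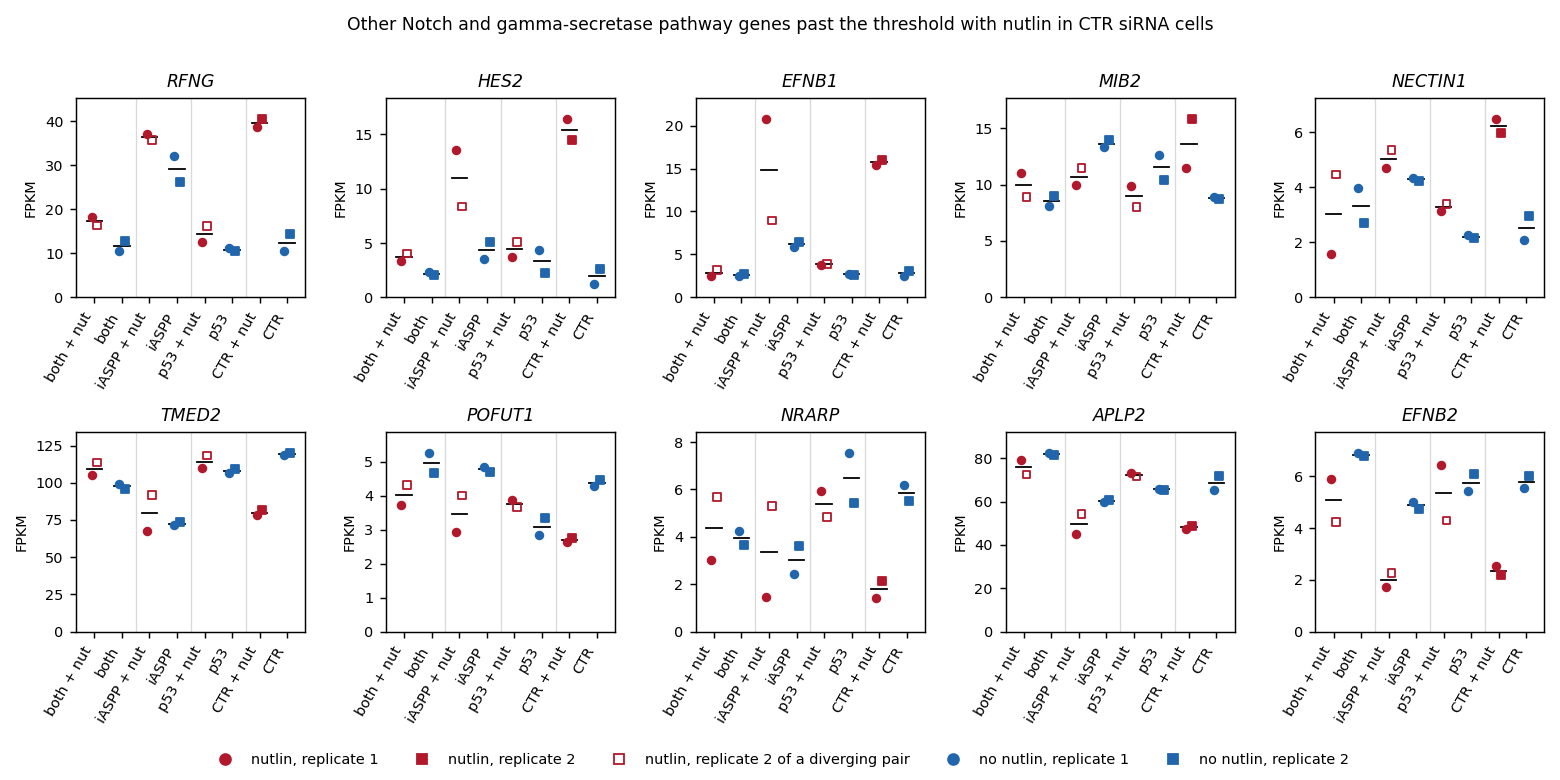
FPKM in every library of the 10 other pathway genes past the threshold with nutlin in CTR siRNA cells, by group (nut, nutlin; both, p53+iASPP siRNA), with a line at the mean of the 2 libraries and open squares for replicate 2 of the 3 diverging pairs. RFNG had 38.6 and 40.4 FPKM in CTR siRNA+nutlin, against 10.5 and 14.4 FPKM in CTR siRNA, and HES2 and EFNB1 were high in the same nutlin group.

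The other nutlin pair shares none of those libraries. For p53+iASPP siRNA+nutlin against iASPP siRNA+nutlin 4 of the 40 rose and 4 fell, against 10.8% and 4.82% of all genes, with a median of -0.09 against 0.09. TMED2, SNW1, APLP2 and EFNB2 rose, and RFNG, HES2, EFNB1 and SPEN fell. EFNB1 had 2.50 and 3.22 FPKM in p53+iASPP siRNA+nutlin, against 20.7 and 8.94 FPKM in iASPP siRNA+nutlin (-1.94 ± 0.273, limma adjusted p = 0.00133). SNW1 and SPEN code for a coactivator and a corepressor that meet RBPJ in the nucleus, and they changed by 0.49 ± 0.127 and -0.56 ± 0.168. The SPEN call held in 1 of 16 fits without a single library, and SNW1 did not pass after scaling (adjusted p = 0.0842). Without the first libraries HES2 (adjusted p = 0.308), SNW1 (0.105) and SPEN (0.241) did not pass.

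The test of whether the nutlin response differed between p53 siRNA and CTR siRNA cells passed for 7 of the 40. Of all genes 9.75% passed, 7.65% with a positive and 2.10% with a negative value. This test uses the CTR siRNA+nutlin libraries again, so it is not independent of the calls for nutlin in CTR siRNA cells. RFNG (-1.23 ± 0.245), HES2 (-2.17 ± 0.422), EFNB1 (-1.75 ± 0.386) and MIB2 (-0.90 ± 0.243) had the lower response in p53 siRNA cells. TMED2 (0.65 ± 0.177), POFUT1 (0.76 ± 0.203) and APLP2 (0.64 ± 0.150) had the higher one, the same side as APH1A, and their adjusted p after scaling was 0.0776, 0.0592 and 0.102. Fits without a single library kept HES2 in 16, RFNG in 14, EFNB1 in 11, APLP2 in 9, MIB2 in 6 and TMED2 and POFUT1 in 4 of 16. The MIB2 call was also lost without the second libraries (adjusted p = 0.0576), with the replicate block (0.0518) and with no filter (0.0648). With no filter the calls of TMED2 (limma adjusted p = 0.0535) and POFUT1 (0.0562) were lost here too. Over all comparisons, 8 of the 38 calls of pathway genes were lost with no filter. The medians were 0.13 for the 40 genes and 0.20 for all genes. For nutlin against none, 0 of the 40 passed within p53 siRNA cells, where 0.225% of all genes did. Within cells with both siRNAs it was 0 of the 40, against 0% of all genes. In iASPP siRNA cells EFNB2 alone passed (-0.98 ± 0.184, limma adjusted p = 0.0162), against 5.21% of all genes.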

How the data were processed

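Messenger RNA of HCT116 cells was sequenced in 16 libraries, 2 for each of 8 groups. The values are FPKM as deposited by the authors in one table, whose columns were matched to samples by name. Per the submitters' processing notes the build was hg38 (GRCh38) and edgeR was used, while the sources used here give no aligner, no counting step and no use of strand. No counts were at hand, so only relative depth was read, from the ratio of low values between libraries in log2 windows of 0.01. With replicate 1 of CTR siRNA set to 1, replicate 1 libraries lay between 0.824 and 1.33 and replicate 2 libraries between 3.66 and 7.67. Absolute depth is unknown. FPKM are relative amounts, and a broad change in RNA content is not seen in them.

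On log2(FPKM + 1) of genes averaging 1 FPKM or more, limma 3.58.1 (R 4.3.3) was run with an intensity trend in one fit of 8 group means (8 residual and 3.15 prior degrees of freedom). The pseudocount of 1 understates changes of low genes. Adjusted p is by Benjamini-Hochberg over all 10662 genes of a comparison, with a threshold of 0.05. Each 2 against 2 exact test has a smallest p of 0.333, so none was used. There were 12 pairwise comparisons and 4 interactions, that is differences of differences. Alternatives were a pseudocount of 0.1, no filter, median-of-ratios scaling, a replicate block and leaving out each library. Leaving out replicate 2, or replicate 1, of the 3 diverging pairs and averaging the close pairs were chosen after seeing the data. With the close pairs averaged, the spread is taken from the 3 diverging pairs alone. Sequences are from RefSeq (GRCh38.p14) and gene positions from GENCODE 29.

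The 9 genes were given by name, and they and the lists of further genes, written from textbook knowledge, were chosen with earlier results of these data known. Pathway genes are named where they passed, up to 4 a list, and genes like NCSTN by Pearson r. Some genes of the pathway and of the p53 check are not reported here.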

Additional observations from a re-analysis of the deposited data

Results flagged for a closer look

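The response of APH1A to nutlin differed between p53 siRNA and CTR siRNA cells by 1.06 ± 0.234 on the log2(FPKM + 1) scale (limma interaction, adjusted p = 0.0179). With nutlin and without, it averaged 50.04 and 37.9 FPKM in p53 siRNA cells, and 30.9 and 49.8 FPKM in CTR siRNA cells. Both p53 siRNA libraries with nutlin were higher than both without, and both CTR siRNA libraries with nutlin were lower than both without. With the replicates of the close pairs averaged, the adjusted p was 0.737.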

How the results depend on the processing

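Of the 16 counts of genes passing, 7 were the same under every alternative run, all of them 0. With nutlin in CTR siRNA cells, the count of 2 became 1 with a pseudocount of 0.1, 1 with no filter, 1 after scaling, 2 with the replicate block, 3 without the second or the first libraries of the diverging pairs, 0 with close pairs averaged and 0 to 3 without a single library. For p53 siRNA+nutlin against CTR siRNA+nutlin, the count of 2 became 1 with a pseudocount of 0.1, 1 with no filter, 1 with the replicate block, 0 with close pairs averaged and 0 to 2 without a single library. For p53+iASPP siRNA+nutlin against iASPP siRNA+nutlin, the count of 2 became 1 with a pseudocount of 0.1, 0 with no filter, 5 without the second and 0 without the first libraries, 0 with close pairs averaged and 0 to 4 without a single library. For nutlin by p53, the count of 1 became 2 without the first libraries, 0 with close pairs averaged and 0 to 2 without a single library.

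Counts of 0 became 2 without the second libraries for p53+iASPP siRNA against p53 siRNA (2 without the first too, 0 to 2 without a single library) and for nutlin in iASPP siRNA cells (0 to 1 without a single library). They became 1 without the second or the first libraries for iASPP siRNA against CTR siRNA and for p53 by iASPP without nutlin. Nutlin by iASPP gave 1 without the first libraries and 0 to 1 without a single library. Averaging the close pairs leaves fewer samples, and of all genes then 4 passed with nutlin in CTR siRNA cells, against 2861 with every library its own sample. The cause of the other changes was not tested. None of the 7 called differences of these genes changed sign in any alternative, and 47 of all 117 tested did, NCSTN with nutlin among them. The called ones were large against their error in these same libraries, so their kept sign is no further support.

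Replicate numbers are shared between groups in the labels. Over 28 pairs of groups, the correlation of same-numbered deviations was -0.07 to 0.376 and passed 0.1 in 5. The highest lay among the groups of the diverging pairs. They were 0.376 between p53 siRNA+nutlin and p53+iASPP siRNA+nutlin, and 0.209 between iASPP siRNA+nutlin and p53+iASPP siRNA+nutlin. The samples were not treated as paired, and an effect of replicate number shared by these groups alone was not tested. With the replicate block, the NOTCH3 difference between p53 siRNA+nutlin and CTR siRNA+nutlin had an adjusted p of 0.0612 (limma), and no other call of the 9 genes was lost. Of 38 calls of pathway genes 2 were lost, both of MIB2.

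Absolute depth is unknown, and genes near 1 FPKM such as APH1B and NOTCH1 carry a wide error.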
